A study of Mus musculus with 288 samples.

Results

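Expression of 43 sarcomere genes of heart and skeletal muscle, of 35904 genes in the tables, was followed in 6 mouse tissues. The members were taken by name: 15 genes of the thick filament, 12 of the thin filament, 11 of the frame and the Z-disc, and 5 of calcium handling and energy supply, with the isoforms of fast fibres, slow fibres, atrium and ventricle where the families have them. All 43 had a row in every table. Male C57BL/6J wild type mice of 8 weeks were kept for 7 days in normoxia or in intermittent hypoxia (IH), in which oxygen cycled between 21% and 8% during the resting phase, and then spent 2 days in constant normoxic darkness. Heart, muscle, lung, liver, kidney and cerebellum were collected on the second of these days at 8 times 3 hours apart, from 1:30 to 22:30, with 3 replicates each, which gave 24 libraries per tissue and treatment and 288 in all. The labels do not say which muscle was taken, nor which libraries of different tissues came from 1 animal. Levels are in TPM, transcript shares scaled to a fixed total and corrected for transcript length, so that levels of different genes can be compared within a library.

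The sarcomere is the contractile unit of striated muscle. Myosin heavy and light chains form thick filaments, which pull on thin filaments of actin. Calcium released from the sarcoplasmic reticulum binds troponin C on the thin filament, and troponin and tropomyosin then uncover the myosin sites on actin. Titin, nebulin and the proteins of the Z-disc and the M-band hold the filaments in register. Many of these proteins come in isoforms: fast skeletal fibres, slow skeletal fibres, the atrium and the ventricle each use their own set. In the adult mouse ventricle the main myosin heavy chain is Myh6, and Myh7 is the isoform of slow skeletal fibres and of the fetal heart.

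The levels of isoforms matched the labelled tissue in 48 of 48 heart and 48 of 48 muscle libraries. The library labelled liver, IH, replicate 2, 13:30 did not have the levels of a liver, and 12 libraries of the cerebellum and 6 of the lung held raised levels of heart or fast muscle members, so counts in those tissues are given with and without them. The files hold no read counts and the depth of the libraries is unknown. The number of genes above 0 TPM ranged from 22988 to 28331 in the normoxia hearts and from 20316 to 22793 in the IH hearts, without overlap. In the lung the order was the other way, with medians of 22690.5 in normoxia and 24788 after IH.

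Heart and muscle differed in nearly every member. In normoxia, 40 of 43 members met both limits in limma, an adjusted p of at most 0.05 and a difference of at least 1.5-fold, where 35.5% of 13087 genes met them. Of the members, 16 were higher in the heart (17.8% of all genes) and 24 in the muscle (17.7%). By role, 7 members of the thick filament were higher in the heart and 8 in the muscle, 4 and 7 of the thin filament, 3 and 6 of the frame and the Z-disc, and 2 and 3 of calcium handling and energy supply. The members that did not pass were Tnnt1 (0.06 ± 0.29 log2, SE), the slow troponin T, Myom1 (0.12 ± 0.10) and Myom2 (-0.51 ± 0.09), both of the M-band. Libraries of both tissues were taken as independent, although some may come from the same mice.

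Thick filament genes of the muscle were mostly fast isoforms. Myh4, the heavy chain of IIB fibres, ranged from 3293 to 7512 TPM (median 4784) in normoxia muscle and from 0.00344 to 1.60 TPM (median 0.0108) in normoxia heart. The lowest muscle library was far above the highest heart library. Mylpf, the fast regulatory light chain, had a median of 20724 TPM in muscle and 3.41 TPM in heart, and Myl1, the fast essential light chain, 18213 and 83.3 TPM. In the heart the same places were taken by Myh6 at 2536 to 8589 TPM (median 4389), by Myl2, the regulatory light chain of ventricle and slow fibres, at 6003 to 14817 TPM (median 11021), and by Myl3, the essential light chain of the same muscles, at 2873 to 8067 TPM (median 5381). Myh6 in muscle ranged from 0.997 to 27.0 TPM (median 2.57), and the log2 difference of heart over muscle was 10.70 ± 0.21 (SE, limma adjusted p = 3.48e-42). Myosin binding protein C, which sits on the thick filament and tunes its speed, was represented by Mybpc3 in the heart (309.6 TPM at the median) and by Mybpc2, the fast form (1157 TPM), and Mybpc1, the slow form (183 TPM), in the muscle.

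The thin filament held the widest differences. Tnnc2, the fast troponin C, ranged from 16754 to 26444 TPM (median 23348) in normoxia muscle and from 0.0904 to 9.73 TPM (median 0.263) in normoxia heart, a log2 difference of -14.37 ± 0.20 (SE, limma adjusted p = 8.59e-50). Tnnt3, the fast troponin T, differed by -13.63 ± 0.17, and Tnni3, the cardiac troponin I, by 10.76 ± 0.20 in the other direction. The groups did not overlap for any of these genes. Acta1, skeletal alpha-actin, was the most abundant member in muscle at a median of 29957 TPM and stood at 104 TPM in heart. Actc1, cardiac alpha-actin, was present in both, at 2868 TPM in heart and 1033 TPM in muscle, and the tropomyosin Tpm1 was high in both as well, at 4713 and 14854 TPM.

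Among the genes of the frame, Ttn (titin, the spring between Z-disc and M-band) had a median of 15.5 TPM in heart and 52.3 TPM in muscle. Neb, the ruler of the skeletal thin filament, was at 1.11 and 498 TPM, and Nebl, its smaller cardiac relative, at 33.9 and 0.369 TPM. The calsarcins of the Z-disc divided in the same way: Myoz1 was at 0.214 TPM in heart and 1879 TPM in muscle, and Myoz2 at 1012 and 37.6 TPM. So did the calcium pumps of the sarcoplasmic reticulum, Atp2a1 at 0.440 and 7786 TPM and Atp2a2 at 1093 and 28.4 TPM, and the calcium stores Casq1 (4.68 and 1898 TPM) and Casq2 (139.9 and 11.5 TPM). Ckm, the muscle creatine kinase that regenerates ATP, was high in both at 1432 and 23138 TPM.

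**Figure D1:**
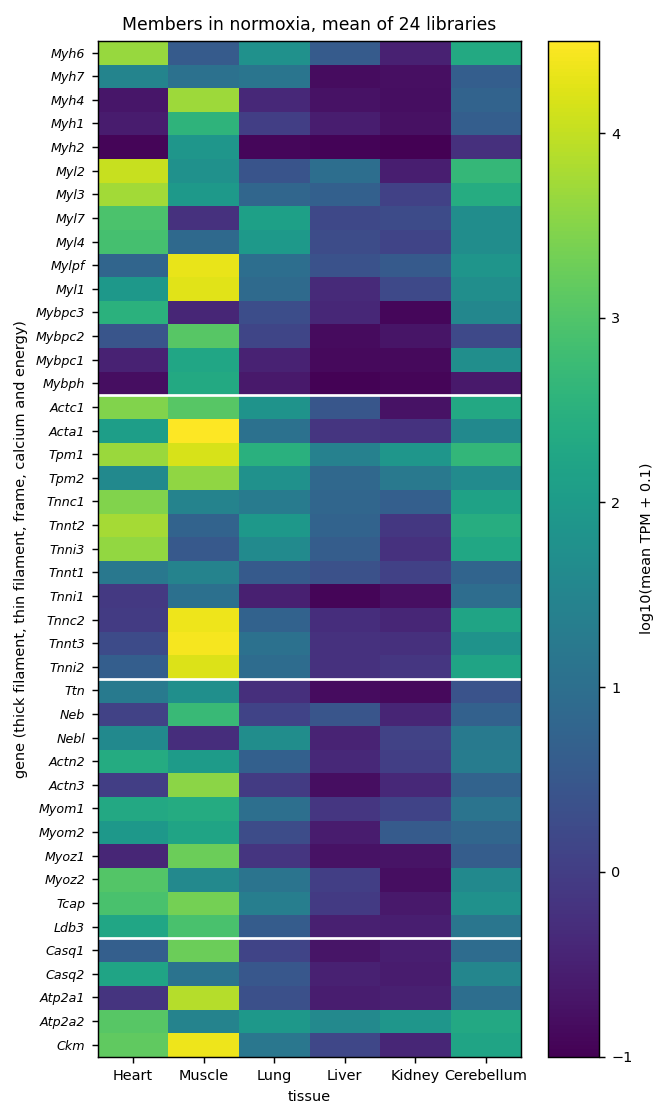
Heat map of the 43 members (rows, by role) in the 6 tissues (columns), coloured by log10 of the mean normoxia level in TPM plus 0.1 over 24 libraries each. Fast isoforms such as Myh4 and Tnnc2 are high in muscle, cardiac isoforms such as Myh6 and Tnni3 in heart, and Myl7 and Myl4 are visible in lung while Myl2 is not.

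The heavy chain genes lie in clusters. Myh6 and Myh7, of the heart and of slow fibres, lie within chr14:54941921-54994626 and the fast Myh2, Myh1 and Myh4 within chr11:67171027-67260446 (GRCm38, GENCODE M21). The 250 bases before the start of transcription were searched on both strands for the CArG box, the site bound by serum response factor in many muscle genes, in the 43 promoter windows that RefSeq gives for 35 of the 43 members. The motif was in 9 of 43 member windows and in 1.47% of 32851 windows of the same length, overlapping windows of 1 gene included. The genes were Acta1, Actc1, Ldb3, Myh4, Myl3, Myl7, Myom1 and Nebl. A binding motif of MEF2 was in 6 of 43 and 2.92% of all windows, the E-box CANNTG in 35 of 43 and 66.2%, and CACGTG, 1 form of that E-box, in 1 of 43 and 6.02%. The 120 bases before the start are shown for 4 of them, the skeletal and the cardiac actin and the essential light chain of ventricle and slow fibres next to the regulatory light chain of the atrium, since these 4 carry the CArG box within that stretch and are used differently in heart, muscle and lung. Sequences are from RefSeq (GRCm38.p6), 5′ to 3′ on the strand of the gene: Acta1 at chr8:123894776-123894895, minus strand, Actc1 at chr2:114052876-114052995, minus strand, Myl7 at chr11:5898783-5898902, minus strand, and Myl3 at chr9:110763558-110763677, plus strand. Capitals mark the CArG box, which lies 73 to 64 bases before the start of Acta1, 47 to 38 of Actc1, 61 to 52 of Myl7 and 85 to 76 of Myl3. A match of letters does not show binding.
Acta1: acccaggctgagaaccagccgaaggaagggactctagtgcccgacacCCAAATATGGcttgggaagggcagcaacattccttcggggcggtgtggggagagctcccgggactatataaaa
Actc1: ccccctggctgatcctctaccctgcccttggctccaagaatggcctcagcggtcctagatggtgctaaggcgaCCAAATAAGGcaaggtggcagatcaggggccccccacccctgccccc
Myl7: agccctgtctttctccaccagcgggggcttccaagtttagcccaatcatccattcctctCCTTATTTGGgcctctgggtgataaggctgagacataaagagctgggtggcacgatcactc
Myl3: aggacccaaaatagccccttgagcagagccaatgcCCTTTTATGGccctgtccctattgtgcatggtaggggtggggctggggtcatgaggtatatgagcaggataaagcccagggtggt

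The mixture of isoforms placed the muscle among the fast muscles. Of the summed TPM of Myh1, Myh2, Myh4 and Myh7, normoxia muscle held 91.4% ± 2.24 (SD, n = 24) Myh4 of IIB fibres, 6.99% ± 1.55 Myh1 of IIX fibres, 1.42% ± 0.590 Myh2 of IIA fibres and 0.213% ± 0.191 Myh7 of slow fibres. After IH the shares were 90.7% ± 2.19, 7.10% ± 1.32, 1.86% ± 0.813 and 0.301% ± 0.253. The slow isoforms were rare and varied most between libraries. Myh7 in muscle ranged from 0.177 to 40.3 TPM (median 11.2) in normoxia and from 0.716 to 43.7 TPM (median 13.3) after IH, and the groups overlapped over nearly their whole range. Tnni1, the slow troponin I, ranged from 0.707 to 30.2 TPM (median 9.49) in normoxia and Tnnt1 from 2.83 to 81.4 TPM (median 29.1).

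The slow members of the muscle varied together from library to library. Over 48 muscle libraries, log2 TPM of Myh7 followed Tnni1 (Pearson's r = 0.98 and rho = 0.97, each with an adjusted permutation p of 1.64e-05), Tnnt1 (r = 0.99, rho = 0.98) and Myl2 (r = 0.97, rho = 0.97). Without the 2 libraries farthest from the median of Myh7, r was 0.98, 0.99 and 0.96, and within each treatment and each replicate number it was 0.98 to 0.99, 0.99 to 0.99 and 0.96 to 0.99. Myh7 and Myh4 showed no such relation (r = -0.03, rho = -0.06, adjusted permutation p = 0.883 and 0.823). These relations were among 6 chosen after the data were seen, with 36 correlations adjusted together. The adjusted p of 1.64e-05 holds for each of the 3 slow relations and comes from the smallest p that 100000 permutations can give, 1e-05.

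The atrial light chains varied in the same way in the heart. Myl7, the atrial regulatory light chain, ranged from 74.7 to 2291 TPM (median 873) in normoxia and from 60.4 to 1419 TPM (median 998) after IH, and Myl4, the atrial essential light chain, from 55.5 to 2310.0 TPM (median 691) and from 44.8 to 1227 TPM (median 853). The highest hearts held many times the level of the lowest. Myl7 made up 7.56% ± 3.72 of Myl2 and Myl7 together in normoxia (SD, n = 24, range 0.502% to 20.5%) and 8.66% ± 2.40 after IH. Log2 Myl7 followed log2 Myl4 over 48 hearts (r = 0.97 and rho = 0.86, each with an adjusted permutation p of 1.64e-05, and r = 0.88 without the 2 farthest libraries), with r from 0.73 to 0.99 within treatments and replicate numbers. Over the 48 hearts it did not follow the ventricular Myl2 (r = -0.10, rho = 0.00, adjusted permutation p = 0.564 and 0.993), but within treatments and replicate numbers r ranged from -0.32 to 0.62, the highest in replicate 3 (n = 16, adjusted permutation p = 0.0226, with r = 0.35 without the 2 farthest libraries). In tissue RNA, the number of cells of a kind and the RNA per cell cannot be told apart.

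**Figure D2:**
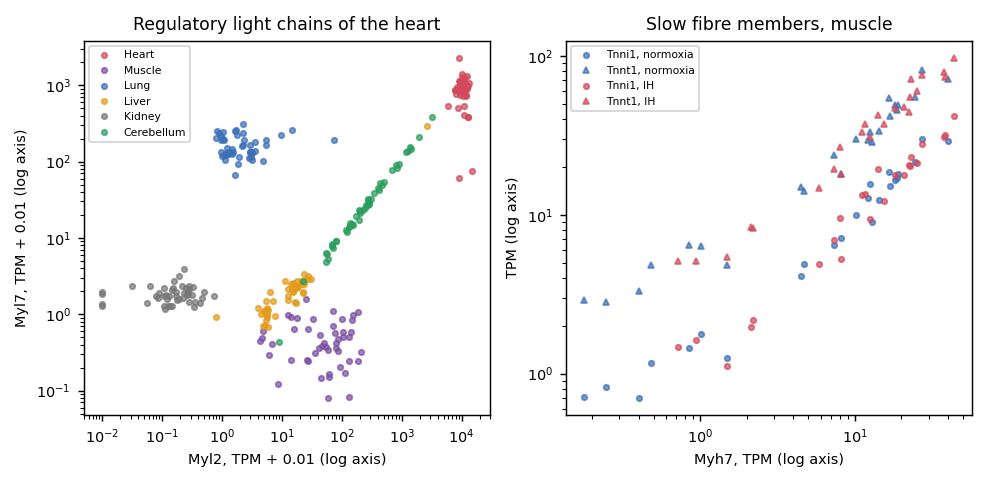
Left, Myl7 (y axis) against Myl2 (x axis) in every library of the 6 tissues, both in TPM plus 0.01 on log axes. Right, the slow members Tnni1 and Tnnt1 against Myh7 in the 48 muscle libraries, in TPM on log axes. Heart, cerebellum and liver libraries had close medians of Myl7 per 100 Myl2, at 8.91, 10.9 and 13.9. Lung libraries lie far above them, with a median of 9004. Single hearts ranged from 0.504 to 25.8 and single livers from 8.19 to 114. The slow members of the muscle rise together.

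In the heart, the sarcomere genes were close to their normoxia levels after IH. Of 34 members with a mean of at least 1 TPM, 0 passed the adjusted p and the 1.5-fold change in limma, where 3.00% of 12779 genes passed. Of the 34, 2 reached a mean of 1 TPM only in the IH group (Actn3 and Tnnc2). The unadjusted p was at most 0.05 for 12 of the 34. The share of all genes at that limit was not counted. It is at least the 43.8% that passed by adjusted p, so the count shows no excess of members. By adjusted p alone 8 members passed, against 43.8% of all genes. Of these, 5 were higher (21.7% of all genes) and 3 lower (22.1%). Members changed by a median of -0.03 log2, with all genes at -0.00, and by -0.52 at the lowest and 0.44 at the highest.

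The 3 members lower after IH by adjusted p were Myh7, Tnnt1 and Myoz2. Myh7 ranged from 12.3 to 73.0 TPM (median 26.2) in normoxia hearts and from 13.4 to 39.5 TPM (median 21.1) after IH, and its log2 change was -0.52 ± 0.13 (SE, adjusted p = 0.000886). The groups overlapped, and the highest hearts were in normoxia. Tnnt1, the slow troponin T, ranged from 12.2 to 23.8 TPM (median 14.8) and from 9.24 to 18.1 TPM (median 12.9), a change of -0.42 ± 0.09 (SE, adjusted p = 0.000127). Myoz2, the cardiac calsarcin that holds calcineurin at the Z-disc, ranged from 530.5 to 1745 TPM (median 1012) in normoxia and from 589.8 to 1211 TPM (median 835) after IH and changed by -0.43 ± 0.13 (SE, adjusted p = 0.00840). The IH hearts lay within the range of the normoxia hearts. All 3 stayed lower in every alternative tried, but all 3 missed the adjusted p when the count of detected genes entered the fit (0.0556, 0.345 and 0.569) and without replicate 1 (0.124, 0.0509 and 0.200). Leaving out replicate 3 or the normoxia library of replicate 3 at 7:30 took Myh7 past 1.5-fold, to -0.76 and -0.59 log2.

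The 5 members higher after IH by adjusted p were Atp2a2, Casq2, Mybpc3, Tpm2 and Mybpc2. Atp2a2, the calcium pump of the cardiac sarcoplasmic reticulum, ranged from 479 to 2013 TPM (median 1093) in normoxia and from 1009.9 to 2570.0 TPM (median 1789) after IH, with a log2 change of 0.44 ± 0.11 (SE, adjusted p = 0.00109). The groups overlapped over the upper part of normoxia. Casq2, the calcium store of the heart, ranged from 75.9 to 288 TPM (median 139.9) and from 128 to 353 TPM (median 235) and changed by 0.40 ± 0.11 (SE, adjusted p = 0.00257). Mybpc3 changed by 0.30 ± 0.10 (SE, adjusted p = 0.0132), Tpm2, the beta-tropomyosin, by 0.27 ± 0.09 (SE, adjusted p = 0.0125) and the low Mybpc2 by 0.26 ± 0.10 (SE, adjusted p = 0.0389). With the number of genes above 0 TPM as a term, 4 of these 5 turned lower: Atp2a2 to -0.20, Casq2 to -0.18, Mybpc3 to -0.14 and Mybpc2 to -0.20 log2. Tpm2 stayed higher in every alternative tried, at 0.13 log2 at the lowest. Each of the 5 missed the adjusted p in some alternative. The highest limma adjusted p ranged from 0.491 for Atp2a2 to 0.677 for Tpm2. Treatment and the number of genes detected cannot be told apart in the heart, where the groups did not overlap in that number.

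Summed markers of several cell types had higher medians in the IH hearts. The summed level of 5 endothelial markers ranged from 127 to 328 TPM (median 196) in normoxia and from 217 to 382 TPM (median 306) after IH, and that of 5 fibroblast markers from 293 to 634 TPM (median 472) and from 472 to 834 TPM (median 657). That of 6 smooth muscle markers ranged from 155 to 367 TPM (median 195) and from 156 to 471 TPM (median 327), and that of 5 adipocyte markers from 19.4 to 1306 TPM (median 176) and from 19.0 to 1142 TPM (median 345). No marker of these lists had a mean under 1 TPM in either group. Medians were also higher after IH for leukocyte markers (27.8 and 40.5 TPM) and Schwann cell markers (32.8 and 43.1 TPM). So were those of erythroid (33618.5 and 39757.5 TPM), hepatocyte (50.0 and 80.6 TPM) and kidney tubule markers (0.753 and 0.829 TPM). Lists of lung epithelium and cerebellar neurons, at medians near 1 TPM or below, were lower. Skeletal muscle markers that are no members were lower as well (5.69 and 5.60 TPM). All these sums are TPM as deposited, without the scaling used in the fits. The part of these markers in the changes of members was not tested. The 8 cardiomyocyte markers that are no members ranged from 2164 to 7489.9 TPM (median 4064) and from 2447 to 6569 TPM (median 5242). Of 42 further genes of the sarcomere and of contraction, 36 were tested in the heart and 1 passed both limits, Myh7b, a myosin heavy chain related to Myh7 at a log2 change of -0.99 ± 0.14 (SE, adjusted p = 5.1e-07), while 8 were higher and 2 lower by adjusted p.

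Ratios of isoforms within a library do not depend on how libraries are scaled. The log2 ratio of Myh7 to Myh6 in the heart ranged from -8.14 to -5.87 (median -7.24) in normoxia and from -8.20 to -7.00 (median -7.73) after IH. It changed by -0.43 after IH, with overlapping groups. The permutation test within time points gave p = 0.00048, and 0.00576 adjusted over 12 ratios, and this was the only ratio of the 12 that passed. Myh7 made up 0.671% ± 0.256 of Myh6 and Myh7 in normoxia and 0.484% ± 0.115 after IH (SD, n = 24 each). Without replicate 1 the difference was -0.40 with an adjusted p of 0.0518 in the permutation test, without replicate 2 it was -0.42 with 0.0532, and without replicate 3 -0.46 with 0.0322. Leaving out any single library gave an unadjusted permutation p of 0.0015 at most.

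The other heart ratios did not pass the permutation test. Atrial over ventricular light chains changed by 0.31 (adjusted p = 0.311) for Myl7 to Myl2 and 0.32 (adjusted p = 0.311) for Myl4 to Myl3, skeletal over cardiac actin (Acta1 to Actc1) by -0.35 (adjusted p = 0.292), and Tnni1, the fetal and slow troponin I, over Tnni3 by 0.10 (adjusted p = 0.396). In muscle no ratio passed. The ratio of Myh7 to Myh4 changed by 0.71 (adjusted p = 0.292), Myh2 to Myh4 by 0.39 (adjusted p = 0.292), Myh1 to Myh4 by 0.05 (adjusted p = 0.627), Tnni1 to Tnni2 by 0.63 (adjusted p = 0.292), Tnnt1 to Tnnt3 by 0.58 (adjusted p = 0.292) and Myl2 to Mylpf by 0.55 (adjusted p = 0.311). The slow isoforms varied together, so these ratios are not independent of each other. Cardiac over skeletal actin in muscle changed by -0.41 (adjusted p = 0.292). Of the fast partners, Myh4 had medians of 4784 TPM in normoxia and 4861 TPM after IH, Tnni2 16684 and 15987 TPM, Tnnt3 27116 and 26238 TPM, and Mylpf 20724 and 20343 TPM.

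In the muscle, too, no member passed both limits after IH. Of 40 members tested, 0 passed in limma, where 0.374% of 12824 genes passed. The unadjusted p was at most 0.05 for 13 of them, a count without a background, since the share of all genes was not counted. By adjusted p alone 7 passed, against 10.9% of all genes, with 1 higher (5.99%) and 6 lower (4.88%). The median member changed by -0.06 log2, with all genes at -0.00. By replicate number the median was 0.05, -0.27 and 0.04, and within replicate 2, 38 of 40 members were lower after IH.

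The 6 members lower by adjusted p are abundant in muscle, and Myl1 and Mybpc2 among them are fast isoforms. Myl1 ranged from 13401 to 22027 TPM (median 18213) in normoxia and from 9141 to 20322 TPM (median 15580.2) after IH, with a log2 change of -0.38 ± 0.08 (SE, adjusted p = 0.000858). Acta1 ranged from 19853 to 40867 TPM (median 29957) and from 17840.2 to 34380.3 TPM (median 26950.2), with -0.29 ± 0.07 (SE, adjusted p = 0.00709). In both genes the lowest libraries were of IH and the highest of normoxia, and the groups overlapped. The others were Ckm (-0.22 ± 0.06), Tpm2 (-0.21 ± 0.06), Mybpc2 (-0.21 ± 0.07) and Tpm1 (-0.19 ± 0.06 log2, SE), with adjusted p from 0.0139 to 0.0496 in limma. Higher by adjusted p was Ttn, which ranged from 36.6 to 97.2 TPM (median 52.3) in normoxia and from 47.3 to 111 TPM (median 72.1) after IH, with a change of 0.31 ± 0.07 (SE, adjusted p = 0.00278). All 7 kept their direction in every alternative tried, but each missed the adjusted p in some. The highest limma adjusted p ranged from 0.144 for Myl1 to 0.338 for Ckm.

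The widest changes in muscle were those of slow members and of cardiac actin, and they did not pass in the fit with treatment as the only term. Myh7 changed by 0.63 ± 0.48 (SE, adjusted p = 0.444), Tnni1 by 0.50 ± 0.42 (SE, adjusted p = 0.508) and Tnnt1 by 0.46 ± 0.39 (SE, adjusted p = 0.515). Actc1, which fast muscle uses in development and regeneration, ranged from 547 to 2282 TPM (median 1033) in normoxia and from 94.5 to 2987 TPM (median 908) after IH, with -0.69 ± 0.28 (SE, adjusted p = 0.105). The IH muscles reached both lower and higher than the normoxia muscles. Actc1 passed both limits in 2 of 13 alternatives, with a limma adjusted p of 0.0375 under the replicate block. Fibroblast markers had medians of 987 and 969 TPM in the muscle and adipocyte markers 3255 and 3697 TPM. Of the 42 further genes, 37 were tested and 1 passed, Trdn, a protein of the calcium release unit at -0.72 ± 0.10 (SE, adjusted p = 2.45e-07), with 4 lower by adjusted p.

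**Figure D3:**
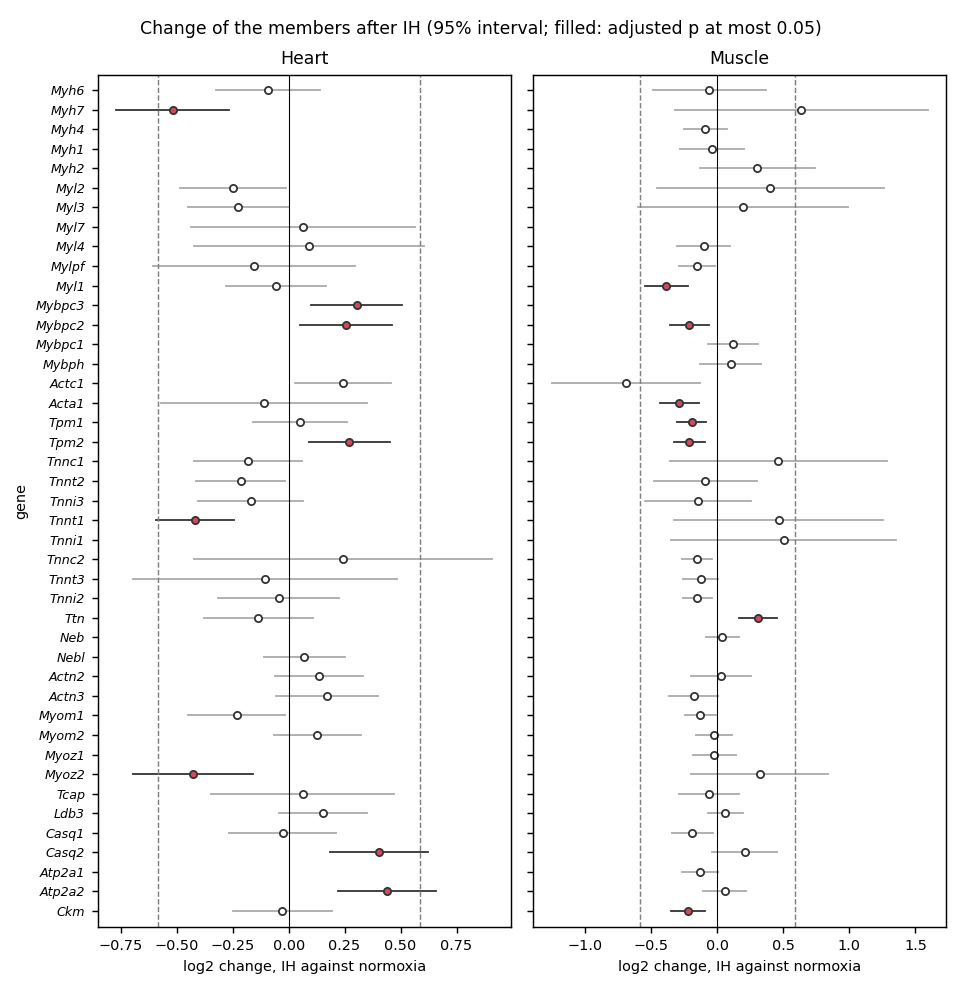
Log2 change after IH against normoxia (x axis) for each tested member (y axis, by role) in heart and muscle, as points with 95% confidence intervals from limma over 48 libraries each, filled where the adjusted p is 0.05 or less. The dashed lines mark 1.5-fold, and in the heart no point lies beyond them, with Myh7 at -0.52 the lowest and Atp2a2 at 0.44 the highest, while in muscle Actc1 at -0.69 and Myh7 at 0.63 lie beyond with wide intervals.

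The change after IH differed between heart and muscle for 10 of 43 members by adjusted p in limma, where 33.5% of 13080 genes passed. The change in the heart was the higher one for 7 (18.4% of all genes) and the lower one for 3 (15.0%). Among the 7, Actc1 differed by 0.96 ± 0.30 (SE, adjusted p = 0.0104), with log2 changes of 0.24 ± 0.11 in heart and -0.69 ± 0.28 in muscle. Tpm2 differed by 0.51 ± 0.11 (SE, adjusted p = 0.000159), with 0.27 ± 0.09 in heart and -0.21 ± 0.06 in muscle, and Mybpc2 by 0.49 ± 0.13 (SE, adjusted p = 0.00192). In the other direction stood Myoz2 at -0.73 ± 0.29 (SE, adjusted p = 0.0462), Neb at -0.46 ± 0.10 (SE, adjusted p = 0.000156) and Ttn at -0.42 ± 0.14 (SE, adjusted p = 0.0169). Without replicate 3, 5 members passed this test.

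Tcap passed the test of a 24-hour rhythm in heart and muscle under both treatments. Tcap (telethonin) caps the ends of titin at the Z-disc. In normoxia hearts its mean over 3 replicates was 530.1 ± 96.3 TPM at 1:30 (SD), 1449 ± 496 at 10:30, 1150.4 ± 75.4 at 13:30 and 396 ± 28.3 at 22:30. After IH the means were 499.9 ± 47.4 at 1:30, 1429 ± 81.2 at 10:30, 1456 ± 258 at 13:30 and 581 ± 153 at 22:30. The libraries at 10:30 and 13:30 were all above those at 22:30 in both treatments. A cosine of 24 hours in limma gave 1.77 log2 from peak to trough, peak at about 10 h, adjusted p = 0.000836 in normoxia and 1.66 log2 from peak to trough, peak at about 10 h, adjusted p = 4.64e-06 after IH.

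In muscle Tcap rose from 1510.3 ± 286 TPM at 1:30 to 3010.4 ± 187 at 13:30 in normoxia and from 1380.3 ± 66.1 at 1:30 to 2966 ± 409 at 10:30 after IH. The cosine gave 0.74 log2 from peak to trough, peak at about 13 h, adjusted p = 0.00202 in normoxia and 0.87 log2 from peak to trough, peak at about 12 h, adjusted p = 0.0156 after IH, where the call was lost without replicate 3 and with a rank test (JTK). Whether the swing differs between heart and muscle was not tested. No member changed its rhythm after IH by the test of the difference in limma, 0 of 34 in heart with 0% of all genes and 0 of 40 in muscle with 0.00780% of all genes, with an unadjusted p for Tcap of 0.766 in heart and 0.746 in muscle.

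Few other members passed the test of rhythm, all of them in muscle. In heart Tcap was the 1 member of 34 in normoxia (0.673% of all genes) and the 1 of 34 after IH (4.23%). In muscle 2 of 40 passed in normoxia (6.85%), Tcap and Mybph, a binding protein of the thick filament (0.71 log2 from peak to trough, peak at about 21 h, adjusted p = 0.0459). After IH 4 of 40 passed (9.50%): Tcap, Mybpc2 (0.56 log2 from peak to trough, peak at about 6 h, adjusted p = 0.00887), Casq2 (0.90 log2 from peak to trough, peak at about 2 h, adjusted p = 0.0152) and Neb (0.43 log2 from peak to trough, peak at about 5 h, adjusted p = 0.0443). Most of these calls rested on all 3 replicates, since 0 to 1 member remained in heart normoxia, 1 to 2 in muscle normoxia and 0 to 1 in muscle IH when a replicate was left out, and the Tcap call of the normoxia heart was lost without replicate 1 and without replicate 2. In the IH heart Tcap passed with each replicate left out in turn.

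**Figure D4:**
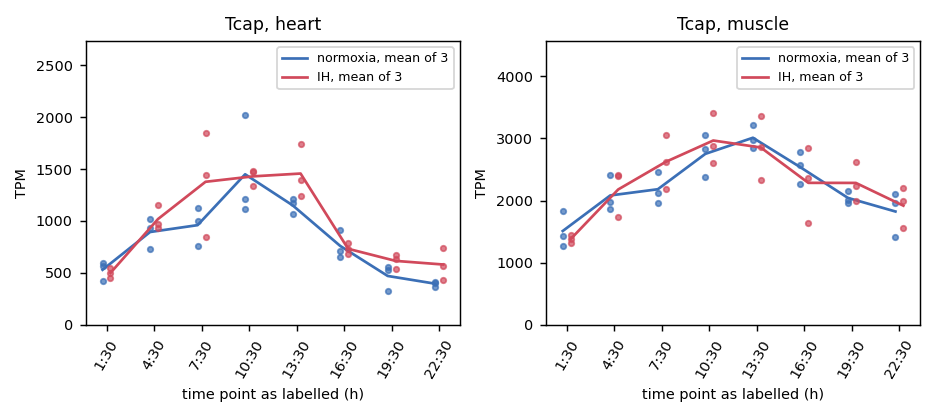
Tcap in TPM (y axis) by time of collection in hours (x axis) in heart and muscle, with 1 point per library and lines through the means of 3 replicates for normoxia and IH. Both tissues and both treatments are high at 10:30 and 13:30 and low at 22:30 and 1:30, in the normoxia heart with means of 1449 and 396 TPM.

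In the lung the atrial light chains stood far above the ventricular ones. Cardiac muscle is known to surround the pulmonary veins of the mouse and to reach into the lung. Myl7 ranged from 66.9 to 261 TPM (median 128) in normoxia lungs and from 102 to 314 TPM (median 197) after IH, and Myl4 from 54.9 to 203 TPM (median 89.0) and from 87.3 to 234 TPM (median 157). Both were higher in most IH lungs, with overlap. The mean of Myl7 was 15.7% of its mean in heart and that of Myl4 12.8%, but that of the ventricular Myl2 was 0.0241% and of Myl3 0.123%, all over normoxia libraries. Of members that atrium and ventricle share, Tnnt2, the cardiac troponin T, lay between at 1.52%, Myh6 at 1.35% and Tnni3 at 1.04%. Not all members followed this order. Nebl was at 124% of its mean in heart and Myh7 at 45.8%, above both atrial light chains. A lung library had 9004 Myl7 per 100 Myl2 at the median (258 at the lowest), and a heart library 8.91 (25.8 at the highest). Heart and lung did not overlap in this ratio.

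After IH, sarcomere genes were higher in the lung. Of 38 members tested, 16 passed both limits in limma and all 16 were higher, where 13.0% of 15426 genes passed and 10.4% passed as higher. They were 4 of the thick filament, 2 of the thin filament, 7 of the frame and the Z-disc and 3 of calcium handling and energy supply. The median member changed by 0.64 log2, with all genes at -0.02, and by 0.53, 0.58 and 0.66 within replicates 1, 2 and 3. Of the 38, 4 reached a mean of 1 TPM only in the IH group (Actn3, Myh1, Myoz1 and Ttn), and 14 of the 16 calls are among the 34 that reached it in both groups.

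Several of the genes that rose are shared by heart and skeletal muscle. Myom1 of the M-band ranged from 7.02 to 15.4 TPM (median 9.27) in normoxia and from 12.7 to 36.6 TPM (median 20.3) after IH and changed by 0.81 ± 0.09 (SE, adjusted p = 1.59e-10), and by 0.78 log2 without the 6 libraries described below. Only the lowest IH lungs lay within the normoxia range. Myom2 (0.85 ± 0.13), Actn2, the alpha-actinin of the Z-disc (0.73 ± 0.13), Tcap (0.78 ± 0.18) and Ldb3, a Z-disc adaptor (0.79 ± 0.15), rose as well, and without those libraries their changes were 0.78, 0.65, 0.68 and 0.68 log2. Ttn ranged from 0.189 to 0.986 TPM (median 0.404) in normoxia and from 1.09 to 3.75 TPM (median 1.79) after IH. It passed the minimum level only through the IH group, so its mean had to be higher after IH.

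Among cardiac members, Tnni3 ranged from 21.9 to 104 TPM (median 38.4) and from 48.7 to 111 TPM (median 79.6), a change of 0.66 ± 0.12 (SE, adjusted p = 3.09e-06), and Tnnt2 from 48.2 to 177 TPM (median 82.6) and from 82.8 to 254 TPM (median 163), a change of 0.66 ± 0.12 (SE, adjusted p = 3.89e-06). The groups overlapped for both. Mybpc3 (0.76 ± 0.14), Casq2 (0.62 ± 0.14) and Myl3 (0.69 ± 0.27) also passed. Without the 6 libraries the changes were 0.60 for Tnni3, 0.60 for Tnnt2, 0.74 for Mybpc3, 0.57 for Casq2 and 0.44 for Myl3. The limma adjusted p of Myom2, Actn2, Tcap, Ldb3, Mybpc3, Casq2 and Myl3 was 0.0195 at most with all libraries.

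The atrial light chains stayed under 1.5-fold. Myl7 changed by 0.30 ± 0.12 (SE, adjusted p = 0.0210) and Myl4 by 0.43 ± 0.12 (SE, adjusted p = 0.00103) in limma, and Myh6 by 0.54 ± 0.17 (SE, adjusted p = 0.00393). Of the 38, 2 were lower by adjusted p (35.0% of all genes), Myh7 at -0.39 ± 0.10 (SE, adjusted p = 0.00108) and Tpm2, which smooth muscle also uses, at -0.30 ± 0.11 (SE, adjusted p = 0.0159). Of Myh6 and Myh7 together, the share of Myh7 ranged from 7.67% to 29.7% in normoxia lungs and from 6.89% to 17.9% after IH. The fast members Neb (1.25 ± 0.20), Atp2a1 (1.20 ± 0.32) and Myl1 (0.80 ± 0.27) passed too, at 1.10, 0.72 and 0.40 without the 6 libraries. So did Ckm (0.92 ± 0.29), which is high in heart and muscle, at 0.51 without them. Myh1 also passed, and like Ttn it reached the minimum level only through the IH group. The highest levels of Ckm came from a few libraries. It ranged from 5.60 to 115 TPM in normoxia and from 10.0 to 189 TPM after IH with all libraries, but from 10.0 to 23.7 TPM after IH without the libraries described next.

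In 6 lungs the fast skeletal members stood above the others. A library was counted where the median level of the 14 fast members (Myh1, Myh2, Myh4, Myl1, Mylpf, Tnnc2, Tnni2, Tnnt3, Mybpc2, Actn3, Myoz1, Casq1, Atp2a1 and Neb), as a percentage of the mean in normoxia muscle, or of 6 cardiac members (Myh6, Myl4, Myl7, Tnni3, Tnnt2 and Mybpc3), as a percentage of the normoxia heart, was over 5 times the median of its tissue and at least 0.1%. In the lung only the fast members counted a library. The libraries were the normoxia library of replicate 1 at 7:30 (0.308%) and the IH libraries of replicate 2 at 10:30 (0.390%), replicate 3 at 10:30 (0.534%), replicate 1 at 16:30 (0.371%), replicate 1 at 22:30 (0.319%) and replicate 2 at 22:30 (0.290%), where the median lung was at 0.0310%. Without them 11 of 35 members passed, all 11 among the 16, with a median change of 0.36 log2. Myl1, Myl3, Casq2 and Ckm were then under 1.5-fold, and Myh1 was under the minimum level. With the number of genes above 0 TPM as a term, 14 of 38 passed, 13 of them higher and 10 among the 16. The shares of all genes given above for the lung belong to the fit with all libraries and without that term. The 6 cardiac members had a median of 1.34% of the heart in normoxia (0.771% to 3.28%) and 2.70% after IH (1.33% to 4.37%), so the groups overlapped.

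Markers that are no members were measured beside them. Cardiomyocyte markers that are no members summed to 44.7 to 170.0 TPM (median 64.6) in normoxia and 63.6 to 192 TPM (median 108) after IH, with 3 of 8 under 1 TPM in both groups (Nppb, Nkx2-5 and Hand2), and 5 markers of lung epithelium to 135986 to 264207 TPM (median 170576) and 34578 to 205116 TPM (median 147277). Of the 42 further genes of the sarcomere and of contraction, 33 were tested and 10 rose by both limits (10.4% of all genes), with 0 called lower, and 18 were higher and 3 lower by adjusted p. Their part in the changes of members was not tested.

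The library labelled liver, IH, replicate 2, 13:30 held sarcomere genes at levels near those of the heart. Its 6 cardiac members stood at 34.0% of the mean of normoxia hearts at the median, where the median liver was at 0.153%. A single gene, Gm19220, made up 63.3% of its TPM, and without that gene in any library the 6 members were at 71.2% to 120.1% of the heart. The 20 members over 100 TPM in heart were at a median of 90.0%. The 8 cardiomyocyte markers that are no members were at 79.3% to 195% of the heart, and 5 hepatocyte markers at 5.24% to 8.61% of the median liver, with the same gene left out. Myl7 per 100 Myl2 was 11.1, in the range of hearts.

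Traces of cardiac members were present in the other livers too, and were higher after IH. With all libraries, 11 of 24 members tested passed both limits in limma, all higher, where 3.67% of 11334 genes passed and 1.25% as higher. Without the library described above, 10 of 17 passed, all among the 11 and all but Tcap, with a median member change of 0.66 log2. The shares of all genes belong to the fit with all libraries. With all libraries 8 of the 24 reached a mean of 1 TPM only in the IH group (Acta1, Actn2, Casq2, Ldb3, Mybpc3, Myom1, Myoz2 and Tcap), and 9 of the 11 calls are among the 16 that reached it in both.

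In the 23 other IH livers Myl2 ranged from 11.4 to 23.8 TPM (median 16.7) and in the 24 normoxia livers from 0.802 to 30.9 TPM (median 5.73). The change was 1.26 ± 0.21 (SE, adjusted p = 1.7e-05) without the library of replicate 2 at 13:30 and 1.61 ± 0.39 with it. Myh6 ranged from 4.44 to 10.8 TPM (median 6.50) and from 0.666 to 11.5 TPM (median 2.19), with a change of 1.11 ± 0.19 (SE, adjusted p = 1.94e-05). IH livers lay in a narrow band, and normoxia livers reached both below it and up to or above its top. Without that library, Tnnt2 changed by 1.03 ± 0.18 (SE, adjusted p = 2.44e-05), Tnni3 by 1.01 ± 0.18 (SE, adjusted p = 4.31e-05), Myl3 by 1.16 ± 0.19 (SE, adjusted p = 9.38e-06) and Actc1 by 0.99 ± 0.16 (SE, adjusted p = 9.52e-06). Tnnc1, the troponin C of heart and slow fibres, Myl7 and Ckm also passed, at 0.61, 0.66 and 0.66 log2. Myoz2 and Tcap, the other 2 of the 11, passed the minimum level only through the IH group, so their means had to be higher after IH. These levels are low. The 6 cardiac members in IH livers stood at 0.175% of the heart at the median, and Myl7 per 100 Myl2 was 13.9 at the median liver, against 8.91 in the heart.

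The difference was not the same in every replicate number. The 6 cardiac members were at 0.0630%, 0.0626% and 0.235% of the heart at the median in normoxia livers of replicates 1, 2 and 3, and at 0.197%, 0.167% and 0.156% in IH livers. Members changed by a median of 1.12, 1.41 and 0.08 log2 within replicates 1, 2 and 3, and without replicate 1 no member passed. The median of 1.41 and the fit without replicate 1 both include the IH library of replicate 2 with levels near the heart. Within replicate 2, 27 members were tested, against 17 and 18 within replicates 1 and 3. The median of replicate 2 and the fit without replicate 1 were not tested with that library left out. The summed level of 5 markers of kidney tubule also differed between the groups of livers, at 0.770 to 112 TPM (median 3.58) in normoxia and 37.4 to 405 TPM (median 82.4) after IH, of which Lrp2 and Slc12a1 were under 1 TPM in both groups. The 5 hepatocyte markers summed to a median of 52254 and 35433 TPM. The part of these differences in the changes of members was not tested. Of the 42 further genes 17 were tested, and 5 rose with all libraries (Ckmt2, Fhl2, Mb, Pln and Unc45b).

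Cerebellum libraries carried the sarcomere genes of a heart in very unequal amounts. Myh6 ranged from 9.45 to 661 TPM (median 161) in normoxia and from 7.94 to 1501 TPM (median 96.1) after IH, and Myl2 from 22.6 to 1415 TPM (median 329.8) and from 9.04 to 3158 TPM (median 199). The median of the 6 cardiac members was 0.182% of the heart in the lowest library and 38.5% in the highest, with 2.66% at the median. By the rule above, 6 libraries stood apart: the normoxia libraries of replicate 1 at 1:30 (16.4%), replicate 1 at 4:30 (15.7%) and replicate 3 at 4:30 (14.9%), and the IH libraries of replicate 2 at 1:30 (13.9%), replicate 3 at 1:30 (38.5%) and replicate 1 at 10:30 (22.4%). Myl7 per 100 Myl2 was 10.9 at the median and 12.04 at the highest, close to the heart and far from the lung.

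The IH library of replicate 3 at 1:30 stood out in its own markers as well. Without Gm19220, its 6 cardiac members were at 56.0% to 90.3% of the heart, and 5 markers of cerebellar neurons at 9.42% to 35.6% of the median cerebellum (median 11.6%). The normoxia library of replicate 3 at 19:30 was the highest in fast skeletal members, at 5.62% of muscle, with 3 normoxia and 4 IH libraries counted for them in all. In that library Tnni2 and Tnnc2 reached the highest values of the cerebellum, 3691 and 3723 TPM. With both lists, 12 of 48 cerebellum libraries were counted, 6 of normoxia and 6 of IH.

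No member passed in the cerebellum after IH. Of 41 tested, 0 passed both limits (2.50% of 14892 genes) and 0 by adjusted p (15.8% of all genes) in limma. The unadjusted p was at most 0.05 for 1 member, a count without a background, since the share of all genes was not counted. The median member changed by -0.30 log2, and by -1.01, -0.64 and 0.72 within replicates 1, 2 and 3. Without replicate 3, 20 members passed as lower, where 13.0% of all genes passed in either direction, and without the 12 libraries 1 member passed as higher, Mylpf. Members that the heart hardly uses had levels in the cerebellum as well. Mybpc1 ranged from 27.1 to 93.0 TPM (median 48.1) in normoxia cerebellum, with a median of 0.231 TPM in heart, and Tnni1 from 4.18 to 18.7 TPM (median 8.89), with 0.668 TPM in heart. The ranges of both genes were narrower than those of Myh6 and Myl2.

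The kidney was nearly free of the sarcomere isoforms. Its 6 cardiac members were at 0.0237% of the heart in the highest library, and no kidney library was counted by the rule above. Of 14 members tested, 0 passed both limits, where 0.767% of 12902 genes passed, and 3 passed by adjusted p (20.0% of all genes), all higher (9.59%). The unadjusted p was at most 0.05 for 5 members, a count without a background, since the share of all genes was not counted. Myom2 ranged from 2.16 to 4.87 TPM (median 3.75) in normoxia kidneys and from 3.11 to 6.76 TPM (median 5.20) after IH and changed by 0.52 ± 0.06 log2 (SE). Tpm2 changed by 0.26 ± 0.07 and Nebl by 0.21 ± 0.05, with a limma adjusted p of 0.00789 at most. Tpm1 and Atp2a2, which many cells use, were the highest members in the kidney at medians of 77.9 and 71.4 TPM.

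**Figure D5:**
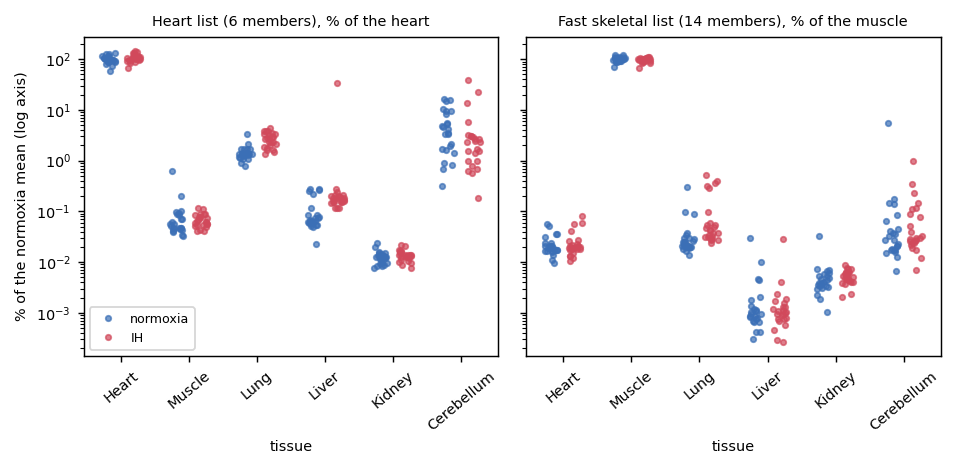
Each point is 1 library, by tissue (x axis) and treatment (colour). The left panel gives the median level of the 6 cardiac members as a percentage of the normoxia heart and the right panel that of the 14 fast skeletal members as a percentage of normoxia muscle, both on log axes. The library labelled liver at 34.0% and the cerebellum library at 38.5% stand nearest to the heart, and the cerebellum library at 5.62% nearest to muscle.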

How the data were processed

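RNA of 6 tissues was extracted with TRIzol, and stranded poly(A) libraries were sequenced on a NovaSeq and quantified by the authors with Kallisto against the Ensembl mouse transcriptome (mm10). Bcl2fastq, FastQC 0.11.3 and DESeq2 are also named in the submitters' processing notes. The values deposited by the authors are TPM, summed to 35904 genes in 12 tables, and TPM of close paralogs, such as the actins and the myosin heavy chains, depend on how Kallisto splits shared reads. Tables pair gene names and time points with replicate numbers, and 0 columns lacked a sample. No counts were used and the depth per library is unknown.

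TPM were scaled by the median of ratios, filtered at a mean of 1 TPM over the libraries compared and set to log2(TPM + 0.5), which understates changes of low genes. Groups were compared with limma 3.58.1 in R 4.3.3 (treatment as the only term, trended variances, Benjamini-Hochberg over all genes tested). A gene was called at an adjusted p of 0.05 or less and a change of at least 1.5-fold. Rhythms were tested with a cosine and a sine of 24 hours, and heart against muscle with an interaction term, both at an adjusted p of 0.05. The 12 isoform ratios used TPM as deposited plus 0.5 and a 2-sided test of 100000 permutations within time points, adjusted over 12. Fits were tested on simulated data. The alternatives were other pseudocounts (0.1 and 1), filters, scaling, terms for time, replicate number and genes detected, a replicate block and left-out replicates or libraries. The members, the gene lists, the ratios and the rule for named genes (members called in any comparison, both members of each ratio, and the 3 widest rises and falls in heart and muscle) were chosen with earlier results of these data known. Labels do not say that replicates of different tissues share an animal, and p-values measure the spread between these samples. Python 3.11.15, numpy 2.4.6, scipy 1.17.1, pandas 2.3.3 and matplotlib 3.10.9 were used.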

Additional observations from a re-analysis of the deposited data

Results flagged for a closer look

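The change after IH was compared between heart and muscle in 1 fit over both tissues. In limma 10 of 43 members passed the test of the difference, where 33.5% of 13080 genes passed. With a replicate number left out, 5 to 8 members passed. Each value below is the log2 change in the heart minus that in the muscle. Of 12 thin filament members 2 passed, Actc1 at 0.96 ± 0.30 (SE, adjusted p = 0.0104) and Tpm2 at 0.51 ± 0.11 (SE, adjusted p = 0.000159). The other actin, Acta1, and the other tropomyosin, Tpm1, did not pass. Actc1 changed by -0.69 ± 0.28 in muscle and 0.24 ± 0.11 in heart, and the muscle value rests on replicate 3, without which it was -0.23. Of the thick filament, Mybpc2 differed by 0.49 ± 0.13 (SE, adjusted p = 0.00192), Mybpc3 by 0.42 ± 0.14 (SE, adjusted p = 0.0151) and Myl1 by 0.35 ± 0.14 (SE, adjusted p = 0.0406). Mybpc3 was under the minimum level in muscle and Neb in the heart, so that each of these had a tested change in 1 tissue only. Actn3 reached that level in the heart only through the IH group, with a mean of 0.936 TPM in normoxia hearts. Of the frame and the Z-disc, Myoz2 differed by -0.73 ± 0.29 (SE, adjusted p = 0.0462), Neb by -0.46 ± 0.10 (SE, adjusted p = 0.000156), Ttn by -0.42 ± 0.14 (SE, adjusted p = 0.0169) and Actn3 by 0.37 ± 0.15 (SE, adjusted p = 0.0440). The calcium pump Atp2a2 differed by 0.40 ± 0.14 (SE, adjusted p = 0.0170), with 0.44 ± 0.11 in heart and 0.06 ± 0.08 in muscle. Heart libraries of the treatments differed in the number of genes detected, and its part in these differences was not tested.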

How the results depend on the processing

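Of 245 values of 26 results under alternative settings, 214 kept the direction and the side of the threshold (counts within 1.5 times), 2 lost significance, 27 moved and 2 reversed. Of 613 values of 46 named changes, 560 kept both, 44 fell short of a limit, 5 newly passed and 4 reversed. In the heart, where no member was called, 1 was called with TPM as deposited (Atp2a2), with a term for genes detected (Ttn) and, chosen after seeing the data, without the library of least correlation with the others (Myh7). Under the term for genes detected Mybpc2 turned to -0.20, Mybpc3 to -0.14, Casq2 to -0.18 and Atp2a2 to -0.20. TPM as deposited moved the median change of all genes to 0.15 in heart, 0.21 in lung and -0.12 in liver, and to -0.31 between heart and muscle. In the lung 9 members passed with a mean of at least 5 TPM, where fewer were tested. In the liver 7 passed with no filter. In the cerebellum 1 passed without the library of least correlation (Ttn), and 1 without the 12 libraries set apart, which was chosen after seeing the data (Mylpf). In the muscle 1 passed with the replicate block, Actc1 with an adjusted p of 0.0375, and 1 with replicate number as a term. Same-numbered libraries of a time point deviated together (r over 0.1) in 5 to 16 of 24 pairs per tissue, with 12 in muscle and 16 in liver. These counts do not settle whether the numbers pair the samples. The replicate block moved no other count by over 1.5 times. In normoxia muscle 1 rhythmic member passed with TPM as deposited, with no filter, with an ordinary cosine fit and with the rank test (JTK), and in IH muscle 1 with no filter and 0 with the rank test.

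Leaving out each replicate number in turn gave 0 to 1 called members in heart (1 without replicate 3) and 0 in muscle and kidney. It gave 10 to 17 in lung (10 without replicate 3) and 0 to 20 in cerebellum (20 without replicate 3). In the liver it gave 0 to 11, with 0 without replicate 1, where the library of replicate 2 near the heart was kept. It gave 5 to 8 members that differ in their change between heart and muscle (5 without replicate 3) and 40 between the tissues in normoxia. Rhythmic members numbered 0 to 1 in normoxia heart (0 without replicate 1 and without replicate 2), 1 in IH heart, 1 to 2 in normoxia muscle, 0 to 1 in IH muscle (0 without replicate 3), and 0 with a changed rhythm. The log2 ratio of Myh7 to Myh6 in heart ranged from -0.46 to -0.40, and missed the adjusted p without replicate 1 and without replicate 2. Tnni1 to Tnni3 in heart reversed without replicate 1 (-0.0881, range -0.09 to 0.22) and Actc1 to Acta1 in muscle without replicate 3 (0.0242, range -0.70 to 0.02). The other ratios kept their sign. Depth is unknown, so whether the changes of members near the minimum level exceed counting error cannot be tested. The cause of these changes with the setting was not tested.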
